A study of Mus musculus with 30 samples.

Results

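The 33 imprinted genes described here were taken by symbol from a fixed list and found in a series of TT-seq libraries of mouse E14 embryonic stem cells, a line grown without feeders in serum with LIF, the GSK inhibitor CHIR99021 and a MEK inhibitor. All 33 are among the 55291 genes of the deposited washout count table, and 27 are among the 21859 rows of the time-course gene tables, which lack the noncoding RNAs H19, Airn, Meg3, Rian, Mirg and Kcnq1ot1. TT-seq purifies RNA made during a short pulse of 4-thiouridine, here 5 min, so that introns are read along with exons and a value stands closer to transcription than to RNA stock. The cells carry osTIR1, the plant receptor that auxin needs, and, outside the untagged groups, SPT16 with a C-terminal mini-AID degron and a triple V5 tag. SPT16 is a subunit of the histone chaperone FACT, and the auxin 3-indoleacetic acid (IAA, 500 nM) triggers its degradation. The washout has 8 libraries: SPT16-AID cells kept 12 h in IAA (4 libraries) or in the vehicle ethanol (EtOH, 4 libraries) and then 24 h in fresh medium, in 2 separately targeted lines named 10E and 11D, with libraries numbered 1 and 2 for each line and treatment. Another 22 libraries form a time course of 11 groups with 2 each: tagged cells at 0 h and given EtOH or IAA for 3, 6 or 12 h, and untagged cells without treatment or given IAA for the same times. Its groups rest on the sample titles, since other label fields contradict them. Each line is 1 clone, and nothing in the labels says that equally numbered libraries were separate cultures, so p-values here measure the spread between these libraries only.

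Imprinted genes are transcribed mainly from the allele of 1 parent. The choice is carried by DNA methylation set in the germ line at imprinting control regions, and it is kept in the early embryo by the zinc finger proteins ZFP57 and ZFP445, which bring TRIM28, SETDB1 and DNA methyltransferases to the methylated copy. Many of the genes lie in clusters with a long noncoding RNA, act on growth, placenta or brain, and are known to vary between cultures of mouse embryonic stem cells, those of the Dlk1-Dio3 cluster included. The counts do not separate the alleles, so every value below is the sum of both.

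The promoters of 3 genes that separated the vehicle libraries, and the stretch between a divergent pair of genes that the washout moved in opposite directions, are shown here for the genes they belong to, and no measurement was made of the sequences themselves. Sequences are from RefSeq (GRCm38.p6), 5′ to 3′ on the gene's strand, the 250 bases before the start of Meg3 (chr12:109540746-109540995, plus), of a short Mest transcript (chr6:30737800-30738049, plus) and of Plagl1 (chr10:13090582-13090831, plus). Capitals mark TGCCGC and its reverse complement GCGGCA, the hexamer that ZFP57 recognises when methylated.
Meg3: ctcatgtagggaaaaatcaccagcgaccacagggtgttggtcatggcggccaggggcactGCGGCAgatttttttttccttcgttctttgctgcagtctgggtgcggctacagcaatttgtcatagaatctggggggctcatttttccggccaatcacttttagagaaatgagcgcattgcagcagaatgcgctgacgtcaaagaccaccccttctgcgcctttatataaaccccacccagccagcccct
Mest: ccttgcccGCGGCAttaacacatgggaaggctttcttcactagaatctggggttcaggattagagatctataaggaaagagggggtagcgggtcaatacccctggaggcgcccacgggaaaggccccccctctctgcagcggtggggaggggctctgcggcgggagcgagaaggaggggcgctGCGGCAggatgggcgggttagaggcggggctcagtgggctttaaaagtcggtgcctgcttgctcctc
Plagl1: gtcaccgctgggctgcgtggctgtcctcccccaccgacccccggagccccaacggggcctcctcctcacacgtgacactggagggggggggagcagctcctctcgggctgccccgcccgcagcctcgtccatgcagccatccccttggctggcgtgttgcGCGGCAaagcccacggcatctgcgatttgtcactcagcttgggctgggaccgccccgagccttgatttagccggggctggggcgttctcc
The hexamer, read on both strands, occurs once before Meg3, in 2 places before this Mest start and once before Plagl1. These starts were shown because their 250 bases held the hexamer, so its presence in them is no result. The 250 bases before Rian, Mirg and the listed Grb10 starts held none, nor did those before another Meg3 start and another Mest start. RefSeq promoter windows, 250 bases before to 50 after a start, were found for 27 of the 33 genes. At least 1 window held the hexamer in 10 of these 27 genes, or in 11 of their 41 windows, and it was in 11.6% of all 32851 windows and in at least 1 window of 13.1% of all genes. The members' windows also held more CG pairs, a median of 14 against 7 over all windows, and the hexamer contains CG. Meg3, Mest, Plagl1, Grb10, Nnat, Nap1l5, Zim1, Snrpn, Igf2 and Commd1 were those 10. A match is a stretch of letters and not evidence that the factor was there. Peg3 and Usp29 start on opposite strands with 163 bases between their RefSeq starts (chr7:6730420-6730582, shown on the plus strand, with CG pairs in capitals).
Peg3-Usp29: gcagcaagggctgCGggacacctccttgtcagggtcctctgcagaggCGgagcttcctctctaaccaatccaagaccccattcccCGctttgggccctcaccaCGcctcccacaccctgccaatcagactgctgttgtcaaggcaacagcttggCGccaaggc
It holds 5 CG pairs and no copy of the hexamer.

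The microRNA genes between Meg3 and Rian are given with them, since they were counted in the same libraries. The mature forms of the 6 microRNA genes with most counts from Meg3 to Mirg follow, with the seed (bases 2 to 8), which pairs with target mRNAs, in capitals.
mmu-miR-433-5p: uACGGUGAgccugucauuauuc
mmu-miR-433-3p: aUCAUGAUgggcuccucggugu
mmu-miR-493-5p: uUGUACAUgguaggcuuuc
mmu-miR-493-3p: uGAAGGUCcuacugugugccagg
mmu-miR-3070-5p: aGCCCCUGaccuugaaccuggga
mmu-miR-3070-3p: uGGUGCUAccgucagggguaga
mmu-miR-3070-2-3p: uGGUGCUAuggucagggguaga
mmu-miR-431-5p: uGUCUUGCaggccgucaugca
mmu-miR-431-3p: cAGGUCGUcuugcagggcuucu
mmu-miR-127-5p: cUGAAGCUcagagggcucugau
mmu-miR-127-3p: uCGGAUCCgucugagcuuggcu
Mir3070a and Mir3070b give the same 5p form, and their 3p forms share the seed GGUGCUA. No other seed is shared among these 6 genes. Mir431, Mir433 and Mir127 lie opposite the coding gene Rtl1, within its span on the other strand.

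Total counts ran from 11068135 to 16554314 in the EtOH libraries and from 6547992 to 10978586 in the IAA libraries, and the 33 genes took between 0.0601% and 0.206% of them. The EtOH libraries did not group by line. Over 15110 genes, the log2 CPM of the libraries numbered 1 correlated at 0.986 between lines and those numbered 2 at 0.979, against 0.964 within 10E and 0.961 within 11D. The IAA libraries were closest within their lines, at 0.967 for 10E and 0.979 for 11D. Reads at 10 loci that resemble ribosomal RNA took 38.5% ± 5.30 (SD, n = 4) of counts after IAA and 9.85% ± 2.03 (SD, n = 4) after EtOH. Markers of pluripotent cells summed to 4409 and 3954 CPM in the EtOH libraries numbered 1 of 10E and 11D, to 2605 and 2577 CPM in those numbered 2, and to between 2998 and 3503 CPM in the IAA libraries. Sox2 was at 0 counts in all 8, and another gene model covers it on the same strand. Because of the split among the EtOH libraries, the washout comparison was also fitted without both EtOH libraries of 1 number. Those fits are given beside each member that was called in any of the 3 fits or whose sign turned. Levels are CPM, counts scaled to a common library total, with library sizes from edgeR's TMM method.

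Compared per kilobase of gene, the members spanned from undetected to several CPM (plot of levels per kb). Zrsr1, a copy of a splicing factor gene that lies inside Commd1 on the other strand, stood highest at 5.23 ± 1.49 CPM per kb in EtOH (SD, n = 4). H13, which encodes the signal peptide peptidase, stood at 3.67 ± 0.653, and Kcnq1ot1, the noncoding RNA that silences its cluster in cis, at 3.30 ± 0.860 CPM per kb. H13 and Kcnq1ot1, neighbours in the order, differed by less than the spread between their libraries. Meg3, at 2.75 ± 3.18 CPM per kb, had a spread larger than its mean. Peg10 (1.56 ± 0.321), Igf2r (1.23 ± 0.0860), Peg3 (0.813 ± 0.0910) and Gnas (0.623 ± 0.0661) were steadier between EtOH libraries on that scale. At the low end, Usp29 stood at 0.0176 ± 0.00513 CPM per kb over its 236.642 kb.

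**Figure D1:**
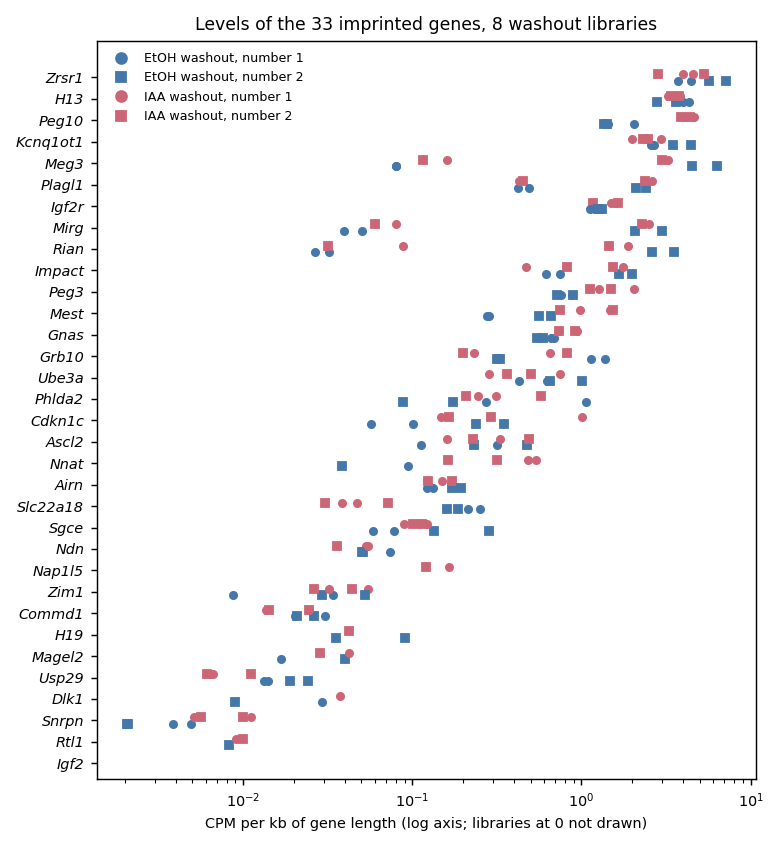
CPM per kb of gene length (log axis) for the 33 imprinted genes, 1 symbol per washout library, blue for EtOH, red for IAA, circles for number 1 and squares for number 2. Zrsr1, H13, Peg10 and Kcnq1ot1 lie highest, Meg3, Rian, Mirg and Plagl1 fall into 2 separate clouds of libraries, and Igf2 has no point.

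Of the 33 genes, 21 passed the filter on low counts. The 12 below it were H19, Igf2, Dlk1, Rtl1, Snrpn, Ndn, Magel2, Nnat, Cdkn1c, Phlda2, Ascl2 and Nap1l5, with between 0 and 76 counts over all 8 libraries. They include the fetal growth factor gene Igf2 and the NOTCH-related Dlk1, paternally expressed genes whose maternal partners are H19 and Meg3. Igf2 had 0 counts in every library, but another gene covers 99.98% of its span on the same strand, and pairs that overlap both were assigned to neither, so its 0 says nothing about transcription. The same holds for the low values of Commd1, a copper-handling adaptor, of which 99.7% is covered by a second gene model. Snrpn (72 counts in all) had 14.3% of its span covered on the same strand by Snurf and Gm38393, and Snurf stood at 0 in all 8 libraries. How many pairs of Snrpn were left unassigned was not tested, so its low count may understate its transcription. Dlk1 (8 counts in all) and H19 (8 counts) had no or little such cover, at 0.0% and 3.21%. A count of 0 in 1 library allows up to 0.139 to 0.588 CPM, set by 3 counts and covering counting error only.

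Meg3, Rian and Mirg, maternally expressed noncoding RNAs of the Dlk1-Dio3 cluster on chromosome 12, were on in 4 washout libraries and nearly off in the other 4. Meg3 (chr12:109541001-109571726, plus, a lincRNA) stood at 2.48 and 2.47 CPM in the EtOH libraries numbered 1 of 10E and 11D and at 137 and 196 CPM in those numbered 2. After IAA, Meg3 stood at 4.90 and 3.56 CPM in 10E and at 99.6 and 92.4 CPM in 11D. The EtOH libraries thus split by number across the lines, while the IAA libraries split by line. Line and number come from the count table's header alone, and exchanging the names of the EtOH libraries 10E number 2 and 11D number 1 would make both treatments split by line. Whether those names are right was not tested, and every EtOH value by line, the 10E against 11D comparison and the line-by-treatment difference depend on them. Rian, which hosts small nucleolar RNAs, stood at 1.86 and 1.54 CPM in EtOH number 1 of 10E and 11D, at 152 and 205 CPM in number 2, at 5.10 and 1.84 CPM in the 10E IAA libraries and at 109 and 84.0 CPM in those of 11D. Mirg, a host of microRNAs, stood at 0.774 and 0.988 CPM in EtOH number 1, at 58.7 and 40.6 CPM in number 2, at 1.57 and 1.19 CPM in 10E IAA and at 49.5 and 44.8 CPM in 11D IAA. For all 3 genes, the 4 low and the 4 high libraries did not overlap. These sets were named from the Meg3 values, so its gap is no test. Cdx2 and T, cell type markers given below and on neither list of imprinted genes, separated the same sets. The share of all genes that does so was not tested.

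The microRNA genes and other genes between Meg3 and Mirg on the same strand followed the same libraries. Of 87 such genes, 31 had any count. Together they had 19, 33, 14 and 19 counts in the low libraries (10E EtOH number 1, 11D EtOH number 1, 10E IAA 1 and 2) and 1804, 1976, 886 and 484 counts in the high ones (10E EtOH number 2, 11D EtOH number 2, 11D IAA 1 and 2). B830012L14Rik, not a microRNA gene, alone held 1259, 1415, 671 and 325 of the counts in those high libraries. The 57 microRNA genes among the 87 together had 163, 158, 58 and 78 counts there and 1, 0, 0 and 2 in the low ones. Mir433, the gene of the mature forms listed first above, had 21, 14, 2 and 8 counts in those high libraries and 0 in each of the low ones. Mir127 had 8, 9, 2 and 4 counts in the high libraries and 0 in the low ones, and Mir431 had 8, 4, 4 and 8 against 0. These are reads of newly made RNA over the precursor's stretch and not measures of the mature microRNA. On the opposite strand, the paternally expressed Rtl1 had 4 counts in all 8 libraries. Dio3, the deiodinase gene at the far end of the cluster, stood at 3.75 and 2.88 CPM in EtOH number 2, at 1.01 and 0.933 CPM in number 1, at 2.94 and 1.19 CPM in 10E IAA and at 3.43 and 3.56 CPM in 11D IAA. Its IAA library numbered 1 of 10E thus stood with the high ones, unlike that of Meg3. The 10E IAA values rest on 15 and 9 counts, and whether they differ by more than counting error was not tested.

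On other chromosomes, Plagl1, Impact and Grb10 separated the same libraries, while Sgce separated the EtOH libraries only. Plagl1 (chr10:13060504-13131694, plus), a zinc finger regulator of growth genes, stood at 29.9 and 34.7 CPM in EtOH number 1 of 10E and 11D, at 150.5 and 172 CPM in number 2, at 30.6 and 32.0 CPM in 10E IAA and at 185 and 168 CPM in 11D IAA. Its low and high libraries were those of Meg3 and did not overlap. Impact, an inhibitor of the kinase GCN2, stood at 22.9 and 27.9 CPM in EtOH number 1, 61.7 and 73.7 CPM in number 2, 17.5 and 30.6 CPM in 10E IAA and 64.9 and 56.9 CPM in 11D IAA, again with no overlap between the same 2 sets of 4. Grb10 (chr11:11930508-12038683, minus), an adaptor that restrains insulin signalling, ran the other way, at 123 and 148 CPM in EtOH number 1, 35.8 and 34.1 CPM in number 2, 70.6 and 88.3 CPM in 10E IAA and 24.9 and 21.5 CPM in 11D IAA. Sgce, which encodes epsilon-sarcoglycan, separated EtOH number 1 (4.25 and 5.65 CPM) from number 2 (9.76 and 20.7 CPM), while its IAA libraries lay between 6.47 and 8.88 CPM in both lines.

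**Figure D2:**
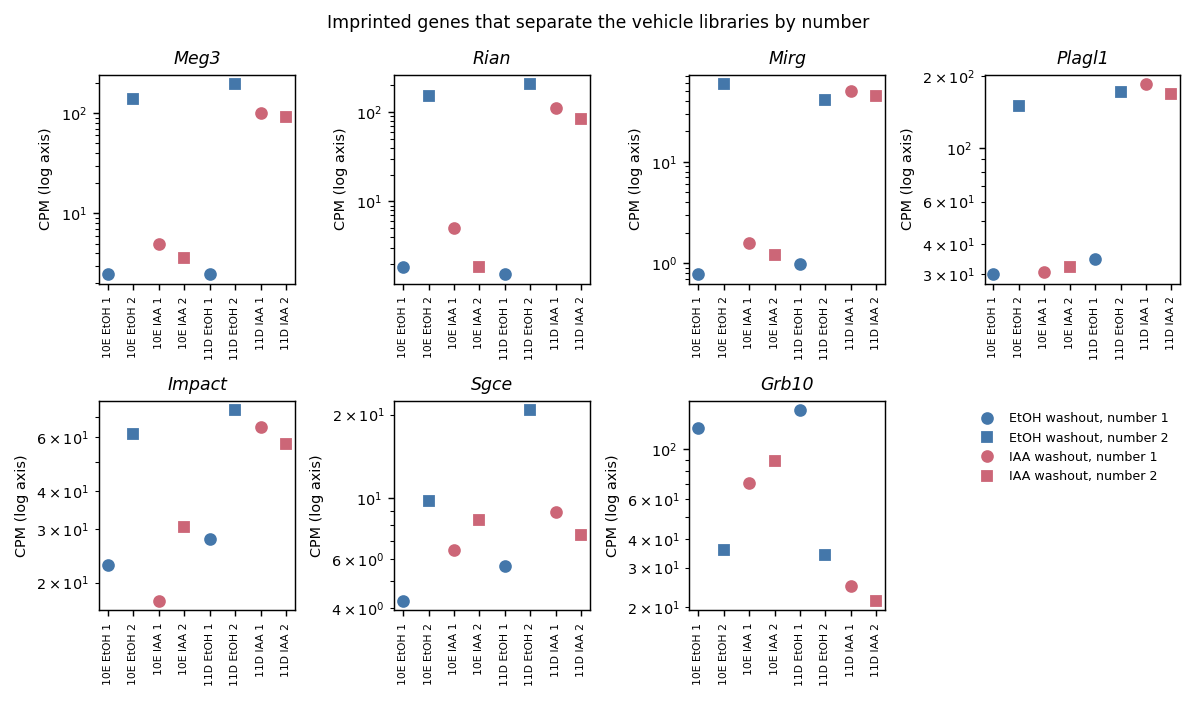
CPM (log axis) in each of the 8 washout libraries for Meg3, Rian, Mirg, Plagl1, Impact, Sgce and Grb10, blue for EtOH and red for IAA, circles for number 1 and squares for number 2. In the Meg3 panel the EtOH squares (137 and 196) and the 11D IAA symbols (99.6 and 92.4) sit far above the other 4 libraries, and the Grb10 panel shows the reverse order.

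A comparison of the EtOH libraries numbered 2 with those numbered 1, chosen after these values were seen, put sizes on the split. edgeR's quasi-likelihood test called 9.8% of 16800 genes at an adjusted p under 0.05, 6.53% higher in number 2 and 3.27% lower. Of the 24 imprinted genes it could test, 7 were higher (Meg3, Rian, Mirg, Plagl1, Impact, Sgce and Mest) and 1 was lower (Grb10). The median log2 difference of the 24 was 0.62, against 0.04 over all genes tested. Since the comparison was picked with the values in view, its p-values are descriptions. By edgeR, Rian differed by 6.70 ± 0.30 on the log2 scale (SE, adjusted p = 8.83e-09), Meg3 by 6.04 ± 0.30 (adjusted p = 1.41e-08) and Mirg by 5.76 ± 0.34 (adjusted p = 1.04e-07). Plagl1 differed by 2.29 ± 0.22, Sgce by 1.58 ± 0.35, Impact by 1.39 ± 0.23, Mest by 1.09 ± 0.26 and Grb10 by −1.99 ± 0.22 log2 units. Of the 13 maternally expressed members tested, 3 were higher and 1 lower, and of the 11 paternally expressed, 4 were higher and none lower. Those 3 were Meg3, Rian and Mirg, neighbours in the same cluster and so not separate observations. The expressed allele was taken from background knowledge and was not measured in these cells.

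Beyond the members, 6 of 25 tested genes of a second list of imprinted genes were higher in EtOH number 2 by edgeR (Dio3, Zim2, Th, Atp10a, Zdbf2 and Ppp1r9a) and 1 was lower (Blcap). Among 21 imprint maintenance factors, Dppa3, the germ cell and oocyte protein that shields maternal imprints, was higher by 3.34 ± 0.76 log2 units (adjusted p = 0.014 by edgeR), from 0.464 and 0 CPM to 2.41 and 1.84 CPM, and Dnmt3a was higher by 0.73 ± 0.21. Zfp57, the imprint-keeping zinc finger itself, was lower by edgeR, at 147 and 135 CPM in number 2 against 242 and 264 CPM in number 1, and Tet1 was lower by a log2 difference of −0.63 ± 0.18. Some cell type markers differed between the same libraries. Of 11 pluripotent markers tested, 10 had a value below 0 (median −0.51), with Esrrb (−0.88 ± 0.16), Sall4 (−1.09 ± 0.20), Tfcp2l1 (−0.70 ± 0.17) and Tdgf1 (−0.80 ± 0.22) lower in EtOH number 2 by edgeR and Dppa3 higher. Of 5 trophoblast markers 1 was lower, Cdx2, while 3 had values above 0 and the median was 0.28. Cdx2 stood at 3.87 and 3.35 CPM in EtOH number 1, 0.324 and 0.0472 CPM in number 2, 2.35 and 3.16 CPM in 10E IAA, and 0 and 0.334 CPM in 11D IAA. The mesoderm marker T, the 1 called of 3 tested in its list, had 3.56 and 2.58, 0.139 and 0.283, 6.67 and 4.35, and 0.504 and 0.667 CPM in the same order. The primitive endoderm marker Lama1 was lower in number 2 (−1.32 ± 0.19, 1 called of 7 tested), while 5 of the 7 had values above 0 and the median was 0.39. The neural marker Nes was higher (1.48 ± 0.29, 1 called of 2 tested), and 1 of the 2 had a value above 0. Summed in 10E and 11D, the trophoblast markers stood at 27.6 and 24.5 CPM in number 1 and 32.3 and 22.2 CPM in number 2, the fibroblast and mesoderm markers at 23.0 and 23.3 against 21.3 and 15.9 CPM, the primitive endoderm markers at 251 and 252 against 111 and 118 CPM, and the neural markers at 15.5 and 10.9 against 32.3 and 24.9 CPM. Of the primitive endoderm sum, Lama1 alone held 234 and 238 CPM in number 1 and 93.2 and 99.7 CPM in number 2. Of the neural sum, Nes alone held 10.8 and 6.70 CPM against 29.1 and 20.4 CPM. Mesp1, Sox1 and Tubb3 were at 0 counts in all 8 libraries. The part of these cells, and of what the library numbers stand for, in the split was not tested, and fewer cells of a type cannot be told apart from less RNA per cell.

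The washout comparison asks what remains changed 24 h after IAA is removed. By edgeR, 16.4% of 15110 genes were called, 8.83% higher and 7.6% lower after IAA. Of the 21 imprinted genes tested, 3 were higher (Peg10, Mest and Peg3) and 2 lower (Slc22a18 and Usp29). Of the 10 paternally expressed members tested, 3 were higher and 1, Usp29, was lower, and 4 had values above 0. Of the 11 maternally expressed, 0 were higher and 1, Slc22a18, was lower, and 3 had values above 0. The median log2 fold change of the 21 was −0.13, and that of all genes −0.05, with 7 of 21 above 0. The count of 5 in 21 stands near the share of all genes called, for a list this short.

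Peg10 (chr6:4747306-4760517, plus), a retrotransposon-derived gene needed for the placenta, stood at 19.03 and 18.65 CPM in EtOH of 10E, 27.0 and 18.0 CPM in EtOH of 11D, 53.9 and 58.0 CPM in IAA of 10E and 61.2 and 51.3 CPM in IAA of 11D. Every IAA library lay above every EtOH library. The rise was 1.44 ± 0.18 on the log2 scale, or 2.71-fold (edgeR, adjusted p = 4.33e-04), and it was 1.62 without the EtOH libraries numbered 1 (adjusted p = 0.0023) and 1.28 without those numbered 2 (adjusted p = 0.0079). Sgce starts 98 bases away on the opposite strand, and its fitted change was −0.38 ± 0.42 (adjusted p = 0.56 by edgeR). Its sign turned with the libraries used, to −0.96 (adjusted p = 0.0646) without the EtOH libraries numbered 1 and 0.64 (adjusted p = 0.169) without those numbered 2.

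Mest (chr6:30723547-30748465, plus), a hydrolase-like enzyme of mesoderm and fat, stood at 6.88 and 16.4 CPM in EtOH of 10E, 7.08 and 13.96 CPM in EtOH of 11D, 24.3 and 18.7 CPM in IAA of 10E and 36.8 and 38.1 CPM in IAA of 11D. No IAA library overlapped the EtOH range, within which both libraries numbered 1 were lowest. The rise was 1.41 ± 0.32 log2 units (edgeR, adjusted p = 0.0133). Without the EtOH libraries numbered 1 it was 0.97 (adjusted p = 0.058), past the threshold no more, and without those numbered 2 it was 2.08 (adjusted p = 0.00706).

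Peg3 and Usp29, which start back to back, moved in opposite directions. Peg3 (chr7:6703892-6730431, minus), a large zinc finger protein of maternal behaviour and growth, stood at 20.1 and 23.8 CPM in EtOH of 10E, 23.5 and 18.97 CPM in EtOH of 11D, 53.9 and 39.4 CPM in IAA of 10E and 33.6 and 29.7 CPM in IAA of 11D. Usp29 (chr7:6730578-6967219, plus), a ubiquitin-specific protease gene, stood at 3.33 and 4.49, 3.13 and 5.76, 1.57 and 2.64, and 1.51 and 1.45 CPM in the same order. Neither gene's groups overlapped. By edgeR, Peg3 rose by 0.85 ± 0.20 log2 units (adjusted p = 0.0141) and Usp29 fell by 1.22 ± 0.34 (adjusted p = 0.0303). Both calls depended on which libraries entered. Peg3 was 0.87 (adjusted p = 0.0515) and 0.83 (adjusted p = 0.0662) without the EtOH libraries numbered 1 and 2. Usp29 was −1.51 (adjusted p = 0.0265) without number 1 and −0.85 (adjusted p = 0.184) without number 2, and −1.22 (adjusted p = 0.0732) with each line and number as a block. The third member of that cluster, the maternally expressed zinc finger gene Zim1, lay between 0.220 and 1.37 CPM in all libraries and was not called.

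Slc22a18 (chr7:143473736-143499334, plus), a membrane transporter gene of the Kcnq1 cluster, fell furthest of the 21 tested members. It stood at 6.42 and 4.12 CPM in EtOH of 10E, 5.49 and 4.77 CPM in EtOH of 11D, 0.981 and 1.84 CPM in IAA of 10E and 1.21 and 0.778 CPM in IAA of 11D. All IAA libraries lay below all EtOH libraries, on 5 to 14 counts each. The change was −2.10 ± 0.35 on the log2 scale (edgeR, adjusted p = 0.00241), −1.86 (adjusted p = 0.0186) without EtOH number 1 and −2.30 (adjusted p = 0.00918) without number 2. Kcnq1ot1, the noncoding RNA of that cluster, went from 307 ± 80.0 CPM in EtOH to 226 ± 37.1 CPM in IAA (SD, n = 4 each), with a fitted change of −0.44 ± 0.21 (adjusted p = 0.157 by edgeR). Without the EtOH libraries numbered 1 it passed the threshold, at −0.70 (adjusted p = 0.0459), and without those numbered 2 it was −0.13 (adjusted p = 0.686). Phlda2, Ascl2 and Cdkn1c, which restrain placental growth, specify trophoblast and inhibit the cell cycle, stayed under the filter with 56, 76 and 69 counts in all.

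**Figure D3:**
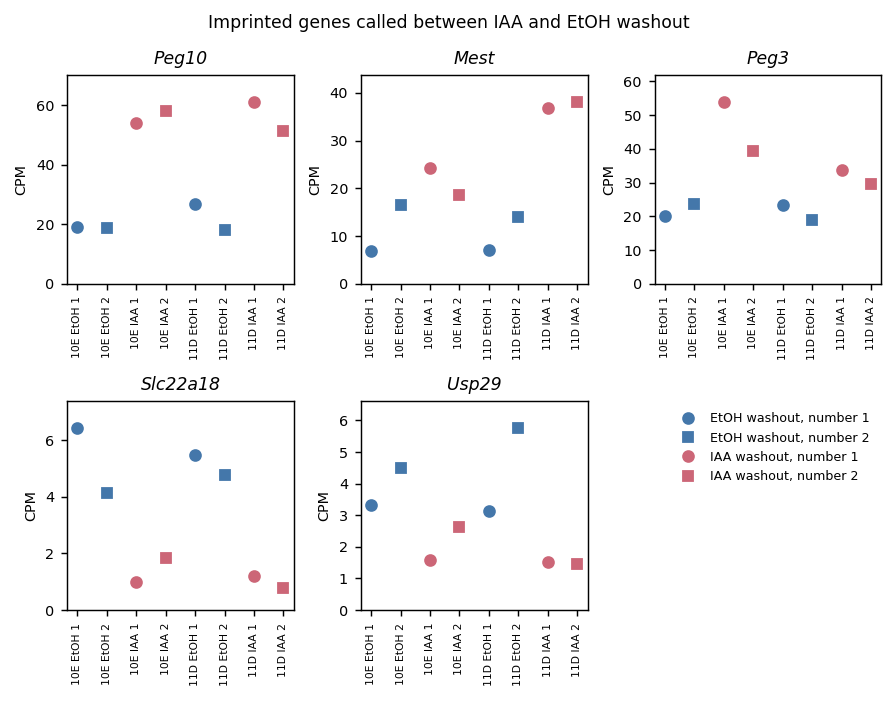
CPM (linear axis from 0) in each of the 8 washout libraries for Peg10, Mest, Peg3, Slc22a18 and Usp29, blue for EtOH and red for IAA, circles for number 1 and squares for number 2. The 4 IAA libraries of Peg10 lie at 51.3 to 61.2 against 18.0 to 27.0 in EtOH, and in the Mest panel the EtOH circles lie below the EtOH squares.

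The other 16 tested members did not pass the test in the fit of all 8 libraries, with adjusted p-values from 0.0928 to 0.99 by edgeR. Gnas, the stimulatory G protein gene, was nearest, at 38.9 ± 4.13 CPM in EtOH and 52.0 ± 6.84 CPM in IAA (SD, n = 4 each), a log2 fold change of 0.42 ± 0.16 (adjusted p = 0.0928). Igf2r, the receptor that clears IGF2, had 0.27 ± 0.16, and Airn, the antisense RNA that silences it on the paternal allele, −0.13 ± 0.21. Ube3a, the ubiquitin ligase gene of Angelman syndrome, had −0.50 ± 0.31. For Meg3, Rian and Mirg the fit gave −0.74 ± 1.67, −0.84 ± 1.78 and −0.04 ± 1.62, standard errors that reflect the 2 clouds of libraries. Without the EtOH libraries numbered 1 they were −1.71, −1.81 and −0.99, and without those numbered 2 these 3 values turned to 4.35, 4.90 and 4.77 (adjusted p = 0.0952, 0.0918 and 0.0966 by edgeR). Plagl1 (0.11 with all libraries, −0.62 and 1.69 without number 1 and number 2), Impact (−0.13, −0.65 and 0.75), Grb10 (−0.74, 0.55 and −1.42), Airn (−0.13, −0.36 and 0.15), Zrsr1 (−0.33, −0.61 and 0.03), H13 (−0.05, 0.15 and −0.23) and Zim1 (0.30, −0.08 and 0.90) also changed sign between these fits, none of them called.

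**Figure D4:**
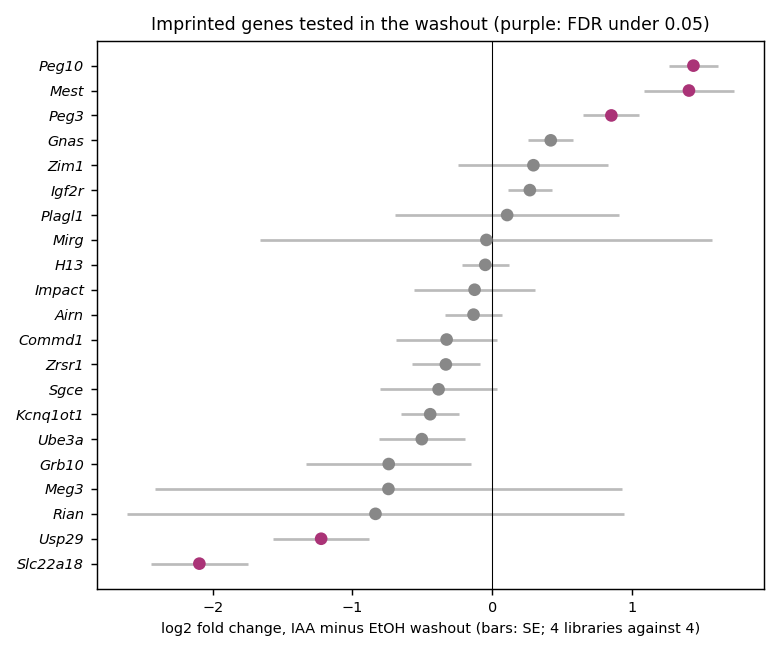
Log2 fold change of IAA against EtOH washout for the 21 imprinted genes tested (edgeR, bars are SE, 4 libraries against 4), purple where the adjusted p was under 0.05. Peg10, Mest and Peg3 lie to the right and Slc22a18 and Usp29 to the left, and the widest bars belong to Meg3, Rian and Mirg.

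Nnat, which encodes the neuronal membrane protein neuronatin, was below the filter but is called in the authors' deposited table of the washout, at a log2 of 3.66 and an adjusted p of 0.00694. Its counts were 3 and 0 in EtOH of 10E, 0 and 2 in EtOH of 11D, 6 and 3 in IAA of 10E and 13 and 7 in IAA of 11D. The groups touched at 3 counts, although in CPM (at most 0.232 in EtOH and at least 0.395 in IAA) they did not overlap. Without the EtOH libraries numbered 1 or 2 it passed the filter, and edgeR gave 4.03 (adjusted p = 0.0297) and 3.03 (adjusted p = 0.0905). The authors' deposited table gives Peg10 at 1.46, Mest at 1.37, Peg3 at 0.84, Slc22a18 at −2.10 and Usp29 at −1.23, all with an adjusted p under 0.05, as in the edgeR fit.

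Whether the lines recovered differently was tested as the line-by-treatment difference. No member was called, and 0.0% of 15110 genes were (0 by edgeR, while 2250 genes had an unadjusted p under 0.05, none of them a member). DESeq2 called 135 genes, with no member among them. By edgeR, the largest member differences (10E effect minus 11D effect) were −5.64 ± 3.49 for Mirg, −4.45 ± 3.81 for Rian and −4.03 ± 3.47 for Meg3. Their adjusted p-values were 0.50, 0.623 and 0.624. Plagl1 had −2.30 ± 1.20 (adjusted p = 0.401) and Grb10 1.98 ± 1.01 (adjusted p = 0.389). The split of EtOH libraries by number counts as spread in this fit. The lack of calls, here and between lines in EtOH below, therefore does not show that the lines were alike. In a fit without both EtOH libraries numbered 1, chosen after the split was seen, the differences were −4.02 for Meg3, −4.45 for Rian, −5.65 for Mirg and −2.30 for Plagl1, and edgeR called them among 33 genes. Each line then has 1 EtOH library, assumed to vary like the IAA pairs, so these values are a description. Within the EtOH libraries the lines were also compared, 10E against 11D, and 0 of 21 members and 0.0% of all genes were called by edgeR, with no member and 366 genes at an unadjusted p under 0.05, and DESeq2 called 0 as well. The median difference of the members there was −0.05 log2 units, against 0.06 for all genes.

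Imprint maintenance factors were read beside the members in the washout. By edgeR, 6 of 21 tested were higher after IAA and none lower, with a median of 0.29. Over all genes, 8.83% were higher and 7.6% lower, with a median of −0.05. Whether these 6 calls hold without the EtOH libraries of 1 number was not tested. Trim28, the scaffold of the ZFP57 complex, rose by 1.02 ± 0.20 log2 units (adjusted p = 0.00678), from between 109 and 175 CPM to between 232 and 366 CPM. Setdb1, the histone H3K9 methyltransferase it recruits, rose by 0.79 ± 0.15, Dnmt3l by 1.09 ± 0.22, Arid4a by 0.76 ± 0.19, Ehmt2 by 0.65 ± 0.18 and Dnmt3b by 0.62 ± 0.16. Of 24 other imprinted genes tested, none was higher and 2 were lower, Cd81 (−0.60 ± 0.17) and Trappc9 (−0.57 ± 0.18). Of 10 neighbours of the clusters, Mrpl23, which lies beside H19, was lower (−0.91 ± 0.24). Among cell type markers, 0 of 11 pluripotent, 0 of 5 trophoblast and 0 of 2 fibroblast and mesoderm markers were called. Of 6 primitive endoderm markers tested, 4 had values above 0 and 2 were called higher, Pdgfra (1.14 ± 0.30) and Dab2 (1.93 ± 0.43). The summed primitive endoderm markers ran from 111 to 252 CPM in EtOH and from 95.5 to 236 CPM in IAA. Of 2 neural markers tested, Map2 (−1.06 ± 0.31) was lower. The part of these markers in the members' changes was not tested, nor was that of the ribosomal RNA-like reads.

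The time course follows the cells while SPT16 is being lost. Its values were read from comparison tables made by the authors, without values per library. Neither the compared groups nor the direction is stated for these tables, so values are called positive or negative as signed there. Log2 values in these tables are shrunken toward 0, most of all at 0 h, so a value near 0 is not an unshrunken estimate. At 0 h the authors' deposited table calls 0.376% of 14909 genes, 0.0201% positive and 0.355% negative. In the authors' deposited table Peg10, named in the choice of these genes for this value, was the 1 member called, at 1.28 (adjusted p = 0.00272 as listed there). Its divergent neighbour Sgce had 0.92 there with an adjusted p of 0.17. For 12 h the authors' deposited table lists Peg10 at 0.10 and Sgce at −0.20, each closer to 0 than its listed SE (0.45 and 0.33), and neither was called.

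At 3 h and 6 h no member was called. The authors' deposited tables call 0.577% of 10920 genes at 3 h (0.531% positive, 0.0458% negative) and 3.1% of 12534 genes at 6 h (1.71% positive, 1.39% negative). At 3 h, 12 members had an adjusted p, of which 11 were positive. The authors' deposited table lists Peg3 at 0.54 (adjusted p = 0.125) and Mest at 0.61 (adjusted p = 0.178). For 6 h the authors' deposited table lists Gnas at 0.58 (adjusted p = 0.0774) and Peg3 at 0.42 (adjusted p = 0.188).

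At 12 h the authors' deposited table calls 20.7% of 15917 genes, 8.58% positive and 12.1% negative, and 4 of the 26 members it could test. In the authors' deposited tables Nnat was positive at 4.29 (adjusted p = 0.00801), with a mean count of 86.6 listed for 12 h and 5.75 for 0 h. Each mean count is pooled over the libraries of its own table on the authors' scaling. These means are therefore not levels of a group over time. Gnas and Peg3 were positive in the authors' deposited table, at 0.90 (adjusted p = 0.015) and 0.99 (adjusted p = 0.0209). The negative member in the authors' deposited table was Ube3a, at −0.68 (adjusted p = 0.0211). The share of members called stood close to the share of all genes. The authors' deposited table lists Mest at 0.86 (adjusted p = 0.0833), Slc22a18 at −0.59 (adjusted p = 0.163) and Usp29 at −0.40 (adjusted p = 0.306), below the threshold. Peg3 and Nnat were thus past the threshold both at 12 h and, by the authors' deposited tables, in the washout, while Gnas and Ube3a were past it at 12 h alone; the difference between the experiments was not tested. Plagl1, Grb10 and Impact, which separated the washout libraries, were listed at 0.01, −0.15 and −0.06 at 12 h in the authors' deposited table.

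**Figure D5:**
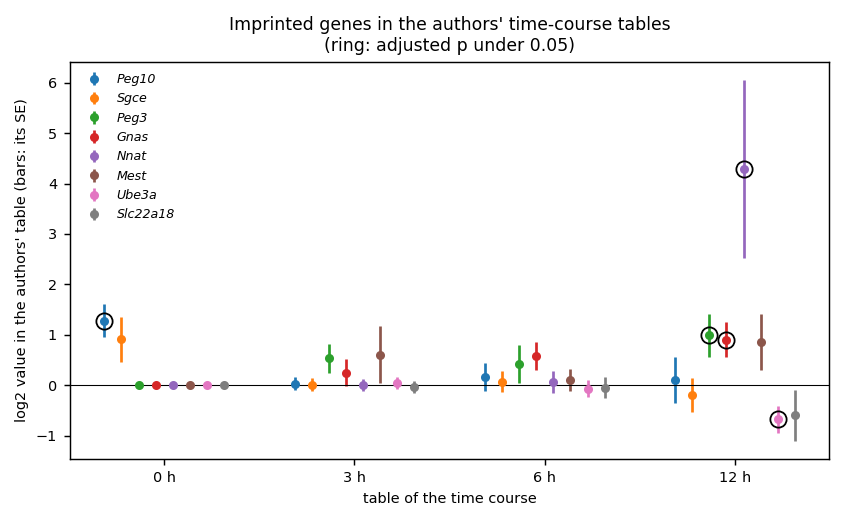
Log2 values in the authors' 0, 3, 6 and 12 h gene tables for Peg10, Sgce, Peg3, Gnas, Nnat, Mest, Ube3a and Slc22a18, with the tables' SE as bars and a ring where the adjusted p was under 0.05. Peg10 is ringed at 0 h (1.28), and Nnat (4.29), Peg3 (0.99), Gnas (0.90) and Ube3a (−0.68) at 12 h.

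Among the other imprinted genes, 2 were positive and 3 negative of 30 at 12 h in the authors' deposited table: Dio3 (1.48) and Begain (1.07), and Adam23 (−1.35), Trappc9 (−1.24) and Slc38a4 (−0.63). Adam23 was negative at 6 h as well, at −1.26. Of 22 maintenance factors none was positive and 4 were negative in that table, the demethylation enzymes Tet2 (−1.37) and Tet1 (−1.14), the insulator protein gene Ctcf (−1.05) and Zfp57 (−0.69). Of 10 neighbours of the clusters with an adjusted p at 12 h, 1 was positive, Dio3 again, and 2 were negative in the authors' deposited table. These 2 were Cobl, next to Grb10 (−1.61), and Mrpl23, beside H19 (−1.07). At 6 h Cobl was negative as well (−0.61), the 1 neighbour called of 10.

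Transcripts upstream of promoters (PROMPTs) were listed by the authors under 23 of the 33 symbols, and no member was called at any time, against 0.00821% of 12182 at 0 h, 0.0% of 13088 at 3 h, 0.122% of 3292 at 6 h and 5.05% of 3052 at 12 h in the authors' deposited tables. With an adjusted p were 14, 11, 3 and 2 members at the 4 times. In the authors' deposited table of 12 h the PROMPT of Commd1 stood nearest, at −0.88 (adjusted p = 0.137, mean count 28.8).

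Length and exon content of the members were set beside their washout values as a description. Exons made up 50.5% of the span of Peg10, 50.2% of Peg3 and 15.8% of Mest, and 7.64% of Usp29 and 6.64% of Slc22a18. The 16 tested members not called ranged from 3.03% to 100.0%. Across the 21 genes, the log2 fold change and the exon share correlated at 0.21 (Spearman's rho, a description over genes, which are not independent replicates).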

How the data were processed

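Raw counts of read pairs per gene for 8 washout libraries were deposited by the authors; per the file headers they were made with featureCounts 2.0.1 over whole genes (introns included), summed by gene name, reverse-stranded, with both ends mapped and no pair assigned to more than 1 gene. Per the submitters' processing notes, STAR, deepTools and mm10 were used. The time-course tables hold log2 fold changes, p-values and adjusted p-values made by the authors, beside mean normalised counts, a signal on the authors' own scaling; the washout table adds the authors' test score, unused here; the pipeline behind them is not given in the sources used here. The eRNA and DHS tables were not used here.

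Counts were tested with edgeR 4.0.16 (R 4.3.3; TMM, filterByExpr, robust quasi-likelihood, Benjamini-Hochberg over all genes tested, threshold 0.05). SE is the size of the log2 fold change over the square root of F. Coordinates and exons are from GENCODE M21 (mm10). Library totals ran from 6547992 to 16554314. Line and number were read from the count table's header, where columns are tied to a treatment but not to a single sample. Cells of the same lines are in both treatments, so line pairs by design. The main washout fit nevertheless held treatment alone, and line entered only as a block in alternatives. With line as a block, edgeR called the same 3 members higher and 2 lower, with Usp29 at −1.23 (adjusted p = 0.0407). Meg3, Rian and Mirg were then at −1.81, −1.99 and −1.04 and not called. The numbers do not pair EtOH with IAA libraries (correlation of the number difference −0.01 in 10E and −0.17 in 11D), but between lines it was 0.71 in EtOH and −0.19 in IAA. Members and lists were chosen with earlier results of these data known, and the comparison of EtOH numbers and the fits without EtOH libraries of 1 number were added after seeing the data. Named with values are members called in any comparison; of other lists, those called, at most 5 per direction, except that all 6 were named where 6 were called; Kcnq1ot1 and members whose sign turned without EtOH libraries of 1 number were added after their values were seen. Alternatives were RLE scaling, DESeq2 1.42.0, no filter, 10 ribosomal RNA-like loci left out, blocks and each library left out. Tested on simulated data of 15110 genes, the washout fit recovered 61 of 100 genes changed by 1 log2 unit and 99 of 100 changed by 2. For EtOH numbers, over 16800 genes, it was 7 and 80 of 100. The simulation gave all genes 1 common spread, taken from a fit by line and treatment in which the split of EtOH numbers counts as spread. It therefore does not show the recovery at each member's own spread. The same-treatment libraries differed by more than sampling noise, so none was counted as a duplicate.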

Additional observations from a re-analysis of the deposited data

Results flagged for a closer look

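For each of the 21 tested members, the highest and the lowest of the 4 EtOH and of the 4 IAA libraries were compared with the rest of their group. In 42 groups examined, 2 held a library whose gap to the nearest other exceeded, as a share of the group's range, Dixon's critical value. Chance flags about 1 in 20 groups, so 2 of 42 is no excess. Peg10 stood at 27.0 CPM in the EtOH library numbered 1 of line 11D, above the other EtOH libraries (18.02 to 19.03 CPM) and below every IAA library. Usp29 stood at 2.64 CPM in the IAA library numbered 2 of line 10E, above the other IAA libraries (1.45 to 1.57 CPM) and below every EtOH library.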

How the results depend on the processing

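Peg10 and Slc22a18 kept their direction and an adjusted p under 0.05 in all 17 alternatives tried for the washout. Peg3 lost the call without either pair of EtOH libraries and Mest without those numbered 1. Usp29 lost it in 7 alternatives. The number of members higher after IAA was 3 with each library left out, and the number lower ran from 1 to 2: it fell to 1 through Usp29 without the EtOH libraries numbered 2 of 10E or 11D, the IAA library numbered 1 of 10E or either IAA library of 11D, at adjusted p-values from 0.064 to 0.0832 (edgeR). With the replicate block of 4 pairs 1 member was lower, and Mirg turned to 0.35; the block changed no other call of a named member. With each library left out, the washout value ran from −1.29 to 0.083 for Meg3 and from −0.61 to 0.78 for Mirg. Without both EtOH libraries numbered 1, 2 members were higher (Peg10 and Nnat) and 3 lower (Slc22a18, Usp29 and Kcnq1ot1). Without both numbered 2, 2 were higher (Mest and Peg10) and 1 was lower (Slc22a18), and Meg3, Rian and Mirg turned to 4.35, 4.90 and 4.77. The line-by-treatment count was 0 lower with each library left out, 4 lower without both EtOH libraries numbered 1 and 1 lower (Meg3, −4.53) without those numbered 2, with 1 EtOH library left in each line. Its Meg3 and Rian values ran from −9.35 to 0.80 and from −10.5 to 0.92 with each library left out. Leaving out the EtOH library numbered 2 of 10E turned them, to 0.80 and 0.92. The comparison of EtOH numbers gave 6 to 9 members higher and 1 to 3 lower with each EtOH library left out, where the lone library of a number is assumed to vary like the other pair. It lost Mest without the EtOH library numbered 1 of 10E (adjusted p = 0.185) or of 11D (adjusted p = 0.135), and gave 2 lower with no filter, and 11 higher and 2 lower with line as a block. Over all genes, the 2483 called in the washout became 1467 with the replicate block, 1567 without both EtOH libraries numbered 2, 1415 without the IAA library numbered 1 of 10E and 1555 without the EtOH library numbered 2 of 10E. For line by treatment, 0 became 421 with no filter and 135 by DESeq2, and for EtOH numbers 1647 became 5683 with line as a block and between 583 and 3205 with each library left out. At an unadjusted p under 0.05, the authors' deposited tables hold 2, 3, 2 and 6 positive members at 0, 3, 6 and 12 h. The cause of these changes was not tested. The other alternatives left the counts of members within 1.5 times. RLE scaling moved the median of all genes by 0.03 log2 units. IAA libraries of 6547992 to 10978586 counts limit members under about 2 CPM, such as Slc22a18 and Usp29, to 5 to 20 counts each.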
